A study of Mus musculus with 7 samples.

Results

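Proteasome genes were compared in mouse long-term haematopoietic stem cells, collected by sorting, between a Calr mutant and wild-type cells. The members were 44 genes taken by symbol from the table of 19649 genes: the 7 alpha and 7 beta subunits of the constitutive core particle, 6 base ATPases, 13 non-ATPase subunits of the regulatory particle, 3 chaperones of the regulatory particle, 5 core assembly factors, the activators Psme3 and Psme4, and the transcription factor gene Nfe2l1. All 44 members were in the table and all 44 passed the filter on low values. The wild-type group held 4 libraries, shown as a first pair (wild-type 1 and 2) and a second pair (wild-type 3 and 4) after the numbers in their titles (genotype Calr +/+ with MxCre), and the mutant group 3 libraries (Calr fl/fl, given as Calr del52/del52, with MxCre). The strain of both groups is a CALR knock-in crossed with MxCre mice. MxCre is a Cre recombinase under the interferon-inducible Mx1 promoter, and pI:pC, which raises interferon, was given to both groups, so the wild-type cells had the same recombinase and inducer. Cells were sorted 14 days after the start of induction as lineage-negative, Kit and Sca-1 positive, CD48-negative and CD150-positive, and no drug was given. Animal age, the share of cells recombined and whether each library came from a separate animal are not stated in the labels, so p-values measure the spread between these libraries, which may be technical.

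The 26S proteasome degrades proteins tagged with ubiquitin. Its core particle is a barrel of alpha and beta rings, in which Psmb5, Psmb6 and Psmb7 carry the chymotrypsin-like, caspase-like and trypsin-like activities. The regulatory particle caps the barrel: its base ATPases (Psmc genes) unfold substrates, its lid and ubiquitin receptors (Psmd genes, Adrm1, Sem1) bind and de-ubiquitinate them, and dedicated chaperones guide assembly. NFE2L1 (also called NRF1) is the transcription factor that raises proteasome genes together when proteasome activity falls, and it binds antioxidant response elements. Long-term stem cells keep protein synthesis low and depend on protein quality control. Calreticulin, encoded by Calr, is a chaperone of the endoplasmic reticulum, and the series title concerns inhibition of the proteasome in CALR-mutated cells, although these libraries came from untreated cells.

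Each library had between 21325340 and 28710304 reads in genes, of which mitochondrial genes took 0.363% to 1.17%. Calr had a range of 15922 to 18606 normalized counts over wild-type libraries and 14239 to 15724 over mutant ones, which says nothing about the del52 allele, since gene-level counts do not separate alleles. The second pair lay outside the range of the other 5 libraries in several measures. The slope of gene levels on log2 exonic length was 0.242 and 0.244 there and between -0.175 and 0.0103 in the other 5 libraries, and the mitochondrial share was 0.363% and 0.412%, beside 0.681% to 1.17%. Kit, a marker of the sort, had 4150.5 and 4068 normalized counts in the first pair, 26511 and 25305 in the second, and 4736, 6677 and 2976 in mutant 1 to 3. The other positive markers, Ly6a (Sca-1) and Slamf1 (CD150), went the other way. Ly6a had 4838 and 6363 in the first pair, 2323 and 2407 in the second, and 4956, 4207 and 6262 in mutant 1 to 3. For Slamf1 the values were 1778 and 1931, then 1416 and 1422, then 2248, 1915 and 2407. Cd48, on which cells were excluded, was low in all 7 libraries, at 124 to 241. The summed level of 9 neutrophil granule genes was 42390.5 to 79332 in the wild-type libraries, 47335 in mutant 1, 10362 in mutant 2 and 12898 in mutant 3, with none of the 9 at 0. Prtn3, 1 of the 9, went the other way, with 2891 to 4841 in the wild-type libraries and 6639, 4266 and 6987 in mutant 1 to 3. Sums for 5 megakaryocyte genes were 8667 to 19933 over wild-type libraries and 6002 to 12376 over mutant ones. Among them Itga2b was lower in every mutant library (1958, 2804 and 2292) than in every wild-type library (4337 to 7309). The same order held in 4.34% of all genes. For Pf4, Gp9, Gp1bb and Vwf the ranges of the groups overlapped. The part of these differences in the results below was not tested. The libraries are unstranded, so reads of Psma4, Psma5, Psmb7, Psmc3, Psmd1, Psmd3, Psmd9 and Psmd13 are uncertain where their exons overlap a gene on the other strand, and Psmb5, Psmb6 and Psmb7 have pseudogenes that may share reads. In bulk libraries fewer cells of a type and less RNA per cell cannot be told apart.

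Over all 7 libraries, with no covariate, no proteasome gene passed the test between mutant and wild-type cells. With the series of title numbers as a covariate, described further on, 20 members were called, 19 of them higher. By limma with Benjamini-Hochberg adjustment at 0.05, 0 of 44 members were called, against a background of 0.0% of the 16047 genes tested. At an unadjusted p under 0.05 there were likewise 0 members, while 1365 of all genes had one. With edgeR 0 members were called, and with DESeq2 0 members, against 0.667% of all genes. The log2 difference mutant minus wild-type was positive for 38 members and negative for 6, with a median of 0.33 (1.26-fold), beside 0.00 for all genes. It ran from -0.84 for Nfe2l1 (adjusted p = 0.545) to 0.62 for Sem1 (adjusted p = 0.539). Libraries of 1 group differed widely: Psmb5, the chymotrypsin-like subunit, had 3881 ± 1773 normalized counts (SD, n = 4) in wild-type and 4835 ± 1242 (SD, n = 3) in mutant libraries. No member had all mutant libraries above all wild-type libraries, although 5.23% of all genes did, and none had all of them below, although 4.34% of all genes did.

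Set against each wild-type pair separately, the same mutant libraries gave opposite pictures. Against wild-type 1 and 2 no member was called (0 of 44, with 0.312% of all genes called), 3 members had an unadjusted p under 0.05, and the median difference was -0.16 on the log2 scale, with 40 of 44 negative. Those 3 were Psmc4, Psmd13 and Adrm1, which were also the only members with all mutant libraries below both wild-type libraries. In the other 41 of 44 the ranges overlapped, as they did in 73.6% of all genes. Against wild-type 3 and 4, 36 of 44 members were called higher in the mutant, where 22.1% of all genes were, and 2 were called lower, where 24.7% of all genes were. The median difference there was 0.80 (1.74-fold), beside -0.00 for all genes. In 39 of 44 members every mutant library lay above both of these wild-type libraries, against 33.8% of all genes. Both contrasts share the mutant libraries and 1 estimate of spread, so they are given side by side and not as separate support.

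**Figure D1:**
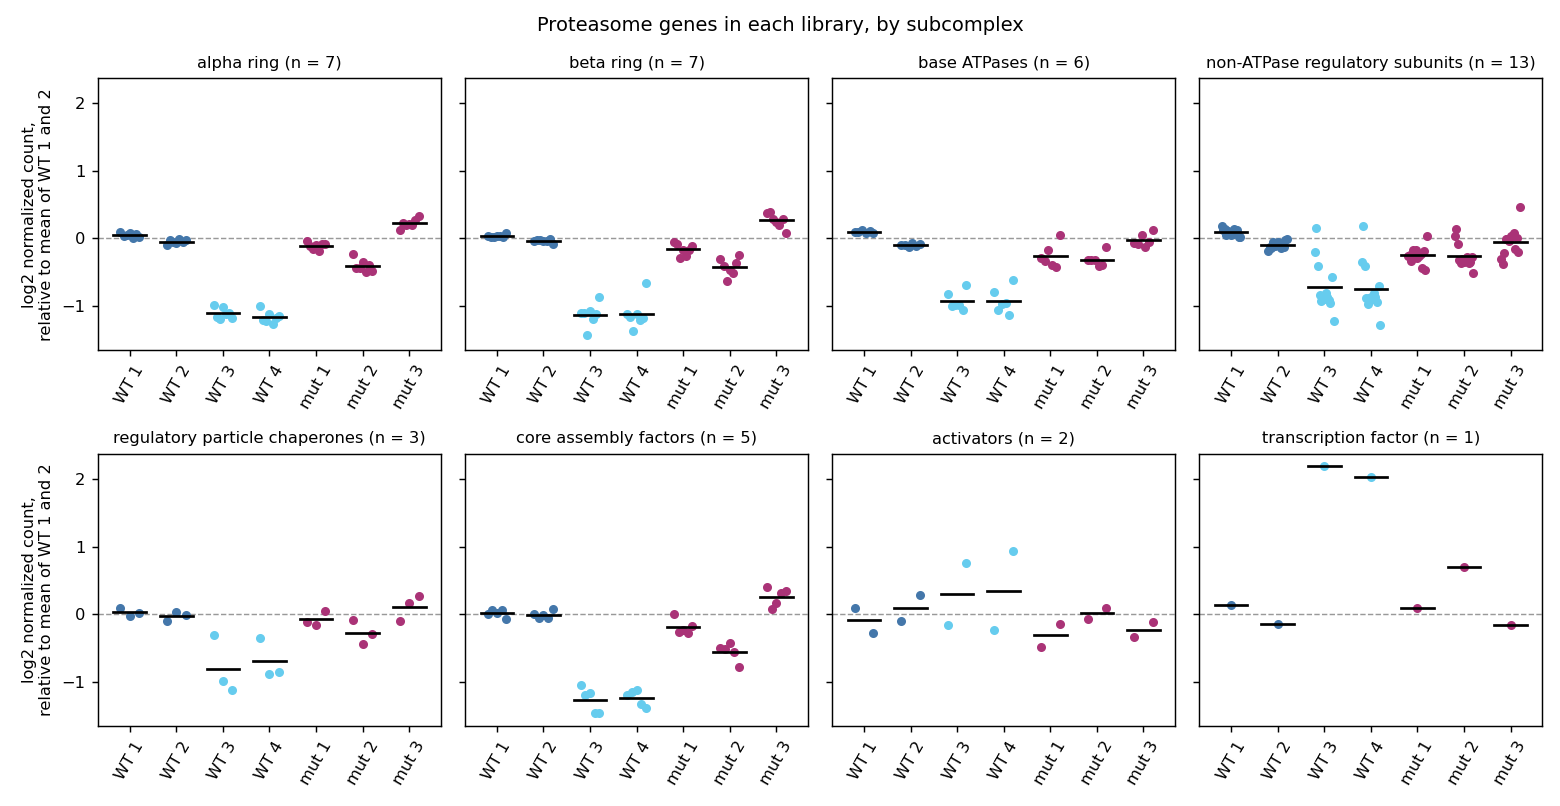
Each panel shows 1 subcomplex; points are its genes in each of the 7 libraries, as log2 normalized count relative to the mean of wild-type (WT) 1 and 2, and bars are the means over genes. For the alpha ring the bars stand at -1.11 and -1.16 in WT 3 and 4 and at -0.11, -0.40 and 0.22 in mutant (mut) 1 to 3; the highest points in WT 3 and 4 are Nfe2l1 and Psme4.

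The test of the difference between those contrasts is the comparison of the wild-type pairs with each other. In wild-type 3 and 4, 37 of 44 members were called lower than in wild-type 1 and 2 (background 20.9% of all genes) and 2 were called higher (background 24.1%), with a median of -0.99 on the log2 scale. The 2 higher were Psme4 and Nfe2l1, and the 5 not called were Psmd1, Psmd2, Psmd3, Psmd5 and Psme3. Mutant against wild-type 3 and 4 left the same 5 uncalled, and Adrm1. For 39 members the difference from the mutant therefore depended on which wild-type pair was used.

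**Figure D2:**
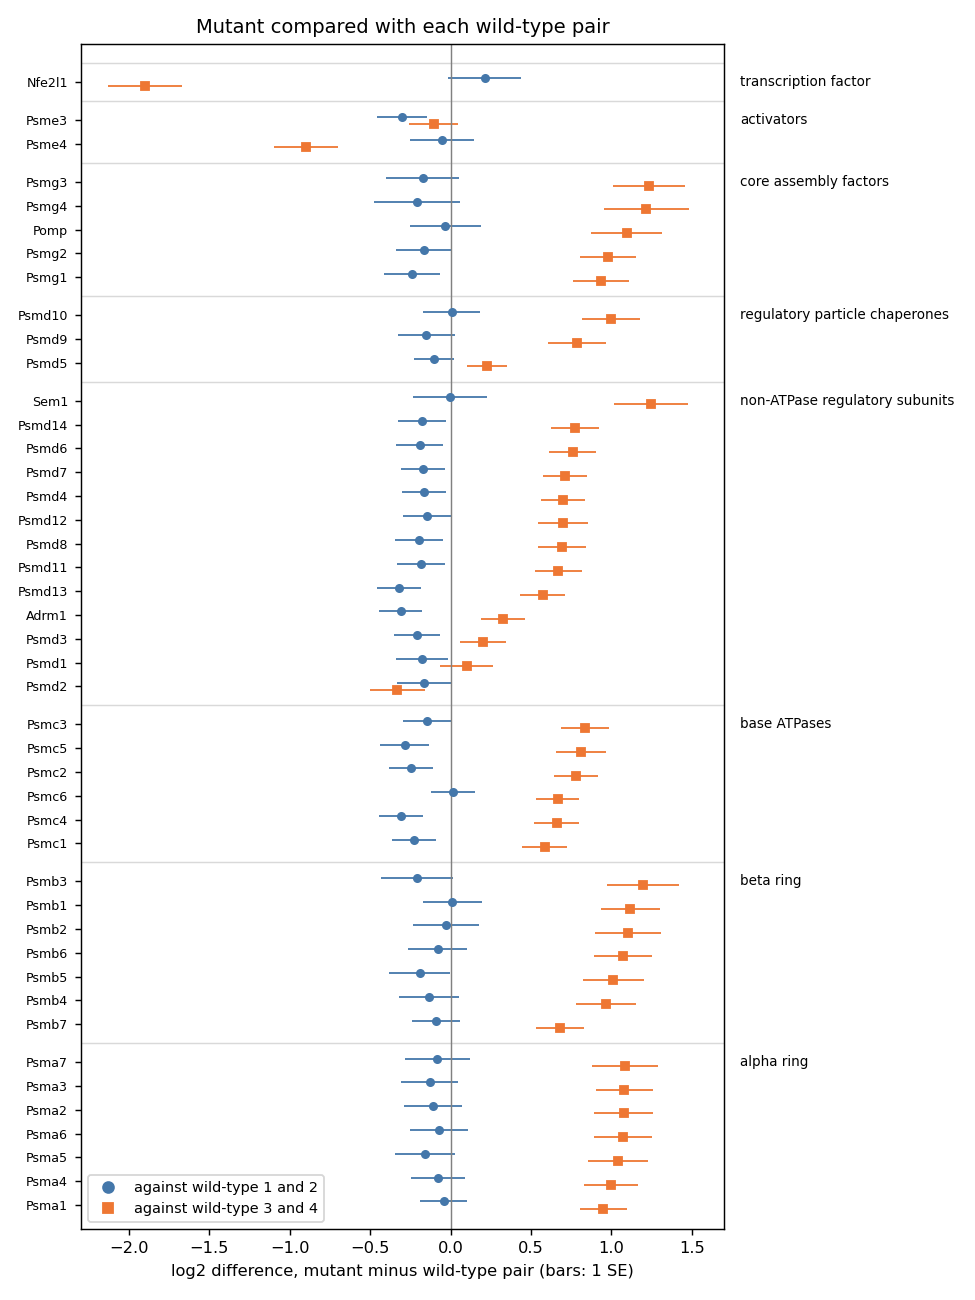
Log2 difference of each of the 44 members, mutant minus wild-type 1 and 2 (blue circles) and mutant minus wild-type 3 and 4 (orange squares), with bars of 1 SE from limma, grouped by subcomplex. The circles lie between -0.32 and 0.21 and the squares between -1.90 and 1.25.

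All 14 core particle genes were called higher in mutant libraries than in the second pair, with a median of 1.07 on the log2 scale (2.10-fold) and adjusted p between 0.000923 and 0.00466. None of the 14 was called against wild-type 1 and 2, where the median was -0.09. The catalytic subunits are shown first. Psmb5 (chromosome 14, 54614119 to 54618022, minus strand, GRCm38) had 5546 and 5283 normalized counts in the first pair, 2362 and 2335 in the second, and 4509.8, 3788 and 6207 in mutant 1 to 3. The mutant range enclosed wild-type 1 and 2 and lay wholly above wild-type 3 and 4. Its difference was -0.19 ± 0.19 (SE) against the first pair (adjusted p = 0.75) and 1.01 ± 0.19 against the second (2.01-fold, adjusted p = 0.00218). Psmb6 (chromosome 11, 70525367 to 70527858) had, in the same order of libraries, 10392 and 10166, then 4709 and 4542, then 9159, 7961 and 12604 normalized counts. It followed the same order as Psmb5, with differences of -0.08 ± 0.18 and 1.07 ± 0.18. Psmb7 (chromosome 2, 38588036 to 38644087, minus strand) had 2564 and 2301, then 1327 and 1528, then 2254, 2043 and 2574. Of the core genes it differed least from wild-type 3 and 4, by 0.68 ± 0.15 (1.60-fold, adjusted p = 0.00466). Leaving out wild-type 3 ended that call, with a difference of 0.58.

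The promoters of Psmb5 and Psmb6 held the core of an antioxidant response element, the motif bound by NFE2L1 with small MAF proteins; that of Psmb7 was not searched. They are shown because both genes were lower in the second wild-type pair than in the first. Nfe2l1, whose product binds that motif, was higher in the second. The sequences are upstream bases from RefSeq (GRCm38.p6) in the direction of the gene, for Psmb5 at chr14:54618023-54618245 on the minus strand and for Psmb6 at chr11:70525107-70525356 on the plus strand, with the match in capitals.
Psmb5: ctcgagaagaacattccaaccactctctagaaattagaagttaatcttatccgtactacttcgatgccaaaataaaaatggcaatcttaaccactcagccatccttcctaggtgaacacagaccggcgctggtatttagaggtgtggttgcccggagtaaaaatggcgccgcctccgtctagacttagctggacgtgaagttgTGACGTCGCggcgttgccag
Psmb6: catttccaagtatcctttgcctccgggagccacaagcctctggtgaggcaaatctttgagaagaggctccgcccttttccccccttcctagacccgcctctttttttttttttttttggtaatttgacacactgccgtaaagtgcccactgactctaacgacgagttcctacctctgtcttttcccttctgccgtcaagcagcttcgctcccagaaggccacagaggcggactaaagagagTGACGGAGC
The match lies 47 bases before the RefSeq start of Psmb5 and 9 bases before that of Psmb6, counted to its first base. The 27 bases nearest to the start of Psmb5 are left out, since GENCODE places them in the transcript. The motif searched was TGACNNNGC on both strands, within 250 bases before the start. It was in 6 of 43 windows of the 37 members with a promoter in the table (14.0%), those of Psmb5, Psmb6, Psmc6, Psmd9, Psmd12 and Adrm1, and in 10.2% of the 32851 windows of all genes. Of these 6 genes, Adrm1 was not called against wild-type 3 and 4 and the other 5 were called higher. Members without the motif in this window, such as Psma7 and Sem1, were called higher too. A match is a description of the sequence and shows no binding.

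The remaining beta and the alpha subunits stayed close to that pattern. Psmb3, which has a structural place in the beta ring, had 5546 and 5349 normalized counts in the first pair, 2014 and 2100.5 in the second, and 4460.4, 3516 and 6669 in mutant 1 to 3. Its difference from wild-type 3 and 4, 1.20 ± 0.22 (2.29-fold, adjusted p = 0.00218), was the highest of the core genes. Psmb1 had 10177 and 9669.9, then 4629.6 and 4571, then 9577, 8064 and 12898, and was the core gene with the highest difference from wild-type 1 and 2, at 0.01 ± 0.18. Psma7, the most abundant alpha subunit transcript, had 14252 and 13854, then 6179.5 and 6339, then 13217, 10053 and 17600.5. Psma1 had 11594 and 10214, then 5497 and 5451, then 10637, 9304 and 11899.6, with the lowest difference of the alpha ring against wild-type 3 and 4 (0.95 ± 0.15). Psma5 had 4816 and 4799.6, then 2207 and 1993, then 4232, 3416 and 5538. In each of these genes mutant 3 was the highest and mutant 2 the lowest of the mutant libraries. The alpha ring spanned only 0.95 to 1.08 against wild-type 3 and 4, narrower than the beta ring at 0.68 to 1.20.

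The base ATPases form the ring that unfolds substrates and opens the gate of the core. All 6 were called higher in mutant libraries than in the second pair, with a median of 0.72 (1.65-fold) and a range of 0.58 to 0.84, and 5 of 6 were negative against wild-type 1 and 2. Psmc3 had 10061 and 8431 normalized counts in the first pair, 4629 and 4694 in the second, and 8189, 7406 and 9504 in mutant 1 to 3, the highest difference of the ring (0.84 ± 0.15). Psmc1 had 8807 and 7711, then 4648 and 4739.9, then 6762, 6569 and 7841, the lowest (0.58 ± 0.14, adjusted p = 0.00644), and its call was lost without wild-type 3 (0.57) or without wild-type 4 (0.60). Psmc4 had 7533 and 6811, then 3629 and 3695, then 5471, 5388 and 6556. All 3 mutant libraries of Psmc4 were between the wild-type pairs, below the first and above the second, and its difference from wild-type 1 and 2 was -0.31 ± 0.14 (adjusted p = 0.422). Psmc6 had 4122 and 3657, then 2407 and 2537, then 4024, 3538 and 4222, so its mutant range enclosed wild-type 1 and 2.

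Among the 13 non-ATPase subunits 9 were called higher than in wild-type 3 and 4 (median of all 13, 0.69, or 1.61-fold) and 4 were not called: Psmd1, Psmd2, Psmd3 and Adrm1. Psmd1 and Psmd2 encode the large scaffold subunits of the base, Psmd3 a large lid subunit, and Adrm1 a ubiquitin receptor that also docks a deubiquitinase. Psmd2 had 8667 and 7231 normalized counts in the first pair, 8821 and 8960.0 in the second, and 6648, 8699 and 6101 in mutant 1 to 3. It was the only subunit of the regulatory particle with a negative difference from wild-type 3 and 4, -0.33 ± 0.17 (adjusted p = 0.135), and without mutant 2 the difference was -0.48 and passed the test. Psmd1, Psmd3 and Adrm1 had differences of 0.10 ± 0.16, 0.20 ± 0.14 and 0.33 ± 0.14 with adjusted p of 0.643, 0.272 and 0.0721. Values that miss the threshold do not show that these genes were equal.

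The other 9 were called higher against wild-type 3 and 4. Psmd14, the deubiquitinase that removes the ubiquitin chain, had 6857 and 5751 normalized counts in the first pair, 3226 and 3251 in the second, and 5510.4, 4909 and 6306 in mutant 1 to 3, a difference of 0.78 ± 0.15 from the second pair (adjusted p = 0.00245). Psmd4, a ubiquitin receptor, had 7173 and 6669.6, then 3851 and 3746, then 6149.9, 5529 and 6886, a difference of 0.70 ± 0.14 (adjusted p = 0.00273). Psmd13 had 5398 and 4719, then 2674 and 2763, then 3709.9, 3924 and 4529, and all mutant libraries fell between the wild-type pairs. It had the lowest difference of all members from wild-type 1 and 2 (-0.32 ± 0.14, adjusted p = 0.411), and its difference from wild-type 3 and 4 of 0.57 ± 0.14 lost its call without wild-type 3 (0.55) or wild-type 4 (0.60). Sem1, a very small and largely disordered lid subunit (chromosome 6, 6557294 to 6578663, minus strand), had 7607 and 7449.8, then 3216 and 3094, then 7685, 5291 and 10355. That made it the member with the highest difference from wild-type 3 and 4, 1.25 ± 0.23 (2.38-fold, adjusted p = 0.00206), while against wild-type 1 and 2 it was at -0.01 ± 0.23. Its mutant libraries spanned 5291 to 10355, a spread of 2534 (SD, n = 3).

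Of the chaperones of the regulatory particle, Psmd9 and Psmd10 were called higher than in wild-type 3 and 4 and Psmd5 was not. Psmd10 (gankyrin) had 1779.7 and 1751 normalized counts in the first pair, 808 and 975 in the second, and 1816, 1444 and 2127 in mutant 1 to 3 (a difference of 0.998 ± 0.18 from the second pair, adjusted p = 0.00186). Psmd9 had 2053 and 2152, then 1058 and 1137, then 1869, 1538 and 2356 (0.79 ± 0.18), and lost its call without wild-type 3 (0.73). Psmd5, in contrast, was nearly level over the mutant libraries at 4478, 4561 and 4489, beside 5173 and 4532 in the first wild-type pair and 3911 and 3796 in the second (0.23 ± 0.13, adjusted p = 0.162). Its mutant values still lay above both libraries of the second pair.

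The 5 core assembly factors were called together, with a median of 1.10 against wild-type 3 and 4 (2.14-fold). Pomp, the maturation protein that beta subunits assemble on, had 7549 and 7552 normalized counts in the first pair, 3636 and 3279.7 in the second, and 7579, 5326 and 9959 in mutant 1 to 3. Its difference was -0.03 ± 0.22 from the first pair (adjusted p = 0.973) and 1.10 ± 0.22 from the second (adjusted p = 0.00304). Psmg1 to Psmg4 encode the chaperones of alpha ring assembly. Psmg3 had 1877 and 1743, then 651 and 714, then 1495, 1222 and 2257 (1.23 ± 0.23, 2.35-fold). Psmg1 had 3772 and 3501, then 1581 and 1638, then 3013, 2529 and 3824 (0.93 ± 0.17). Between mutant libraries these genes spread as the core genes did, with mutant 3 highest and mutant 2 lowest in all 5.

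The activators did not follow the core. Psme3 (PA28 gamma, a nuclear cap that works without ATP) had 8424 and 7358 normalized counts in the first pair, 7071 and 6665 in the second, and 5591, 7457 and 6234 in mutant 1 to 3. Its ranges overlapped both pairs, and no contrast was called (-0.30 ± 0.15 and -0.11 ± 0.15). Psme4 (PA200; chromosome 11, 30771726 to 30880361) was the member of lowest level, at 397 and 587, then 818 and 919.7, then 438, 516 and 443. Every mutant library was below both wild-type 3 and 4, 1.87-fold lower (-0.90 ± 0.20 on the log2 scale, adjusted p = 0.00456), and inside the range of wild-type 1 and 2. Without wild-type 4 the call was lost, with a difference of -0.82.

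Nfe2l1 (chromosome 11, 96817414 to 96829968, minus strand) had the largest difference between the wild-type pairs among the members. It had 1028 and 847 normalized counts in the first pair, 4255 and 3820.2 in the second, and 995, 1515 and 835 in mutant 1 to 3. The mutant range enclosed wild-type 1 and 2 (0.21 ± 0.23, adjusted p = 0.779) and was 3.73-fold below wild-type 3 and 4 (-1.90 ± 0.23, adjusted p = 0.000239). Wild-type 3 and 4 were 4.32-fold above wild-type 1 and 2 (2.11 ± 0.25, adjusted p = 0.00025). So the libraries with the most Nfe2l1 transcript had the least core particle transcript, and of the mutant libraries mutant 2, with the most Nfe2l1, had the lowest core values. Nfe2l1 has a main transcript of 4654 nt, and those of the core genes run from 766 nt (Psmb3) to 1758 nt (Psmb1). What part transcript length had in this opposite order was not tested. The Nfe2l1 promoter is shown because the gene and the core genes differed in opposite directions between the wild-type pairs. It is printed for the most upstream of 5 RefSeq starts, from chr11:96829969-96830218 on the minus strand, with the letters of the NF-Y box in capitals (CCAAT or, on the other strand, ATTGG).
Nfe2l1: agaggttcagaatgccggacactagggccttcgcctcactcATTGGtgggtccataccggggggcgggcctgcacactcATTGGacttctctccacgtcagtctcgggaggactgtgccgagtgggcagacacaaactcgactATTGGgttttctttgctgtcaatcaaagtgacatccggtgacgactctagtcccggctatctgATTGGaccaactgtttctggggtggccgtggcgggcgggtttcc
This window holds 4 matches, all as ATTGG, and 4 of the 5 Nfe2l1 windows hold at least 1. Some of these windows overlap and share matches, so they are not separate observations. Among all members 17 of 43 windows (39.5%) and among all genes 33.8% hold the box, so the share in members was near the background. By gene the box was in 14 of 37 members.

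Differences among the mutant libraries had an order of their own. Mutant 3 was highest, mutant 1 next and mutant 2 lowest in 33 of 44 members, including all 14 core genes and all 5 assembly factors. Mutant 3 was highest and mutant 2 lowest in the same sense in 27.4% of all genes. For the core particle the mean log2 level relative to wild-type 1 and 2 was 0.25 in mutant 3, -0.14 in mutant 1 and -0.41 in mutant 2, beside -1.12 and -1.14 in wild-type 3 and 4. Length slopes ran in the opposite order, at -0.175, -0.116 and 0.0103 in mutant 3, 1 and 2. The summed neutrophil genes did not share that order, being low in both mutant 2 and mutant 3, and 1 of those 9 genes, Prtn3, did.

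Wild-type 3 and 4 and mutant 1 and 2 carry numbers of 1 series in their titles, and the other 3 libraries do not. The labels do not say whether these numbers stand for a batch. Within it, 36 of 44 members were called higher in mutant 1 and 2 than in wild-type 3 and 4 (17.6% of all genes) and 2 lower (22.2% of all genes), with medians of 0.88 for the core and 0.69 for all members. Outside it, mutant 3 was compared with wild-type 1 and 2 on the assumption that a lone library varies as the wild-type libraries do. The title of mutant 3 is of another kind than those of wild-type 1 and 2, so this was not a comparison within 1 series. There 1 of 44 members was called, Sem1 (0.46 higher, adjusted p = 0.0294), against 9.83% of all genes. All 14 core genes were then positive, with a median of 0.23 (1.17-fold), and 12 of 19 regulatory particle genes were negative, with a median of -0.04. The title series was also used as a covariate over all 7 libraries, with mutant 3 and wild-type 1 and 2 coded alike as outside it. That fit does not adjust for a difference between the title kinds of mutant 3 and wild-type 1 and 2. In it 19 members were called higher, against 9.96% of all genes, among them 13 of 14 core genes with a median of 0.63 (1.55-fold). In the same fit 1 member, Nfe2l1, was called lower. None of the 6 ATPases was called in that fit, and the share of all genes called lower in it is not given here.

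Transcript length varied with the size of the difference between the wild-type pairs. Among the 17 members with the shortest main transcripts (555 to 1239 nt) the median difference of wild-type 3 and 4 from wild-type 1 and 2 was -1.15. The 19 members of 1316 to 1904 nt had a median of -0.96, and the 8 members of 2148 to 6491 nt a median of -0.24. Those 8 are Nfe2l1, Psme4, Psme3, Psmd5, Psmd1, Psmd2, Psmd3 and Psmc6, and they include all 5 members not called between the pairs and both that were called higher. Across the 44 members Spearman's rho with main transcript length was 0.77, and 0.73 without Nfe2l1 and Psme4. With exonic length it was 0.53 over the 44 members and 0.51 over 15770 genes, so on this measure the members were near all genes. Genes share the libraries and are not independent replicates, so these are descriptions. For mutant minus wild-type 1 and 2 the rho over members was 0.05 with main transcript length and 0.17 with exonic length. Psmc6, the longest ATPase transcript, differed least between the pairs in its ring (-0.65), and Psmg4, the shortest of all members at 555 nt, differed most of all members in the downward direction (-1.43). With the length slope of each library as a covariate 0 members were called over all 7 libraries, against 0.791% of all genes, and the median turned to -0.12. That slope nearly separates wild-type 3 and 4 from the other libraries, so the fit is close to leaving them out.

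**Figure D3:**
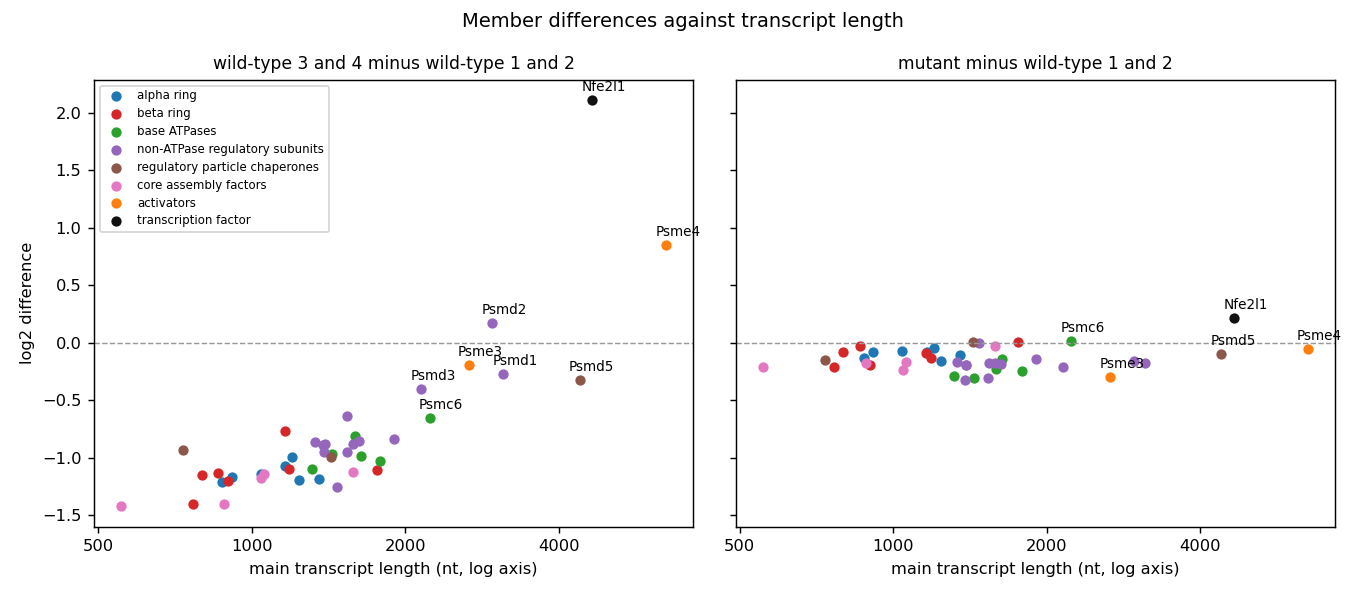
Difference of each of the 44 members against the length of its main transcript (log axis), for wild-type 3 and 4 minus wild-type 1 and 2 (left) and mutant minus wild-type 1 and 2 (right), coloured by subcomplex. On the left short transcripts lie near -1.15 and the longest reach 2.11 (Nfe2l1); on the right no trend is seen (rho 0.05).

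Within the core particle the proportions of its transcripts varied less between libraries than their level. The FPKM of a gene sums all its annotated transcripts, also those not labelled protein-coding. A retained-intron transcript took 45.6% to 49.6% of Psmb4. In Psma3 the main transcript, labelled nonsense-mediated decay, took 44.6% to 50.1%. On the FPKM scale, which adjusts for transcript length, the median of the 14 core genes was 264 and 252 in the first wild-type pair, 116 and 112 in the second, and 229, 188 and 313 in mutant 1 to 3. Relative to that median Psma7 was the highest in all 7 libraries, at 2.13 to 2.36 times the core median, and Psmb6 stood at 1.87 to 1.97. The lowest was Psmb7 in every library except wild-type 4, where Psma5 was lower. Psmb7 was also the core gene whose relative level differed most, as a ratio of highest to lowest: it stood at 0.426 and 0.411 in the first pair, 0.506 and 0.602 in the second, and 0.438, 0.463 and 0.370 in mutant 1 to 3. Psmb5 kept within 0.849 to 0.918. The ratio of the core median to the regulatory particle median, also in FPKM, was 1.28 and 1.30 in wild-type 3 and 4. In the other 5 libraries it was 1.51 to 1.93, highest in mutant 3. The length slope was highest in wild-type 3 and 4 (0.242 and 0.244) and lowest in mutant 3 (-0.175). Dividing by transcript length does not remove a slope that differs between libraries, and its part in this ratio was not tested.

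**Figure D4:**
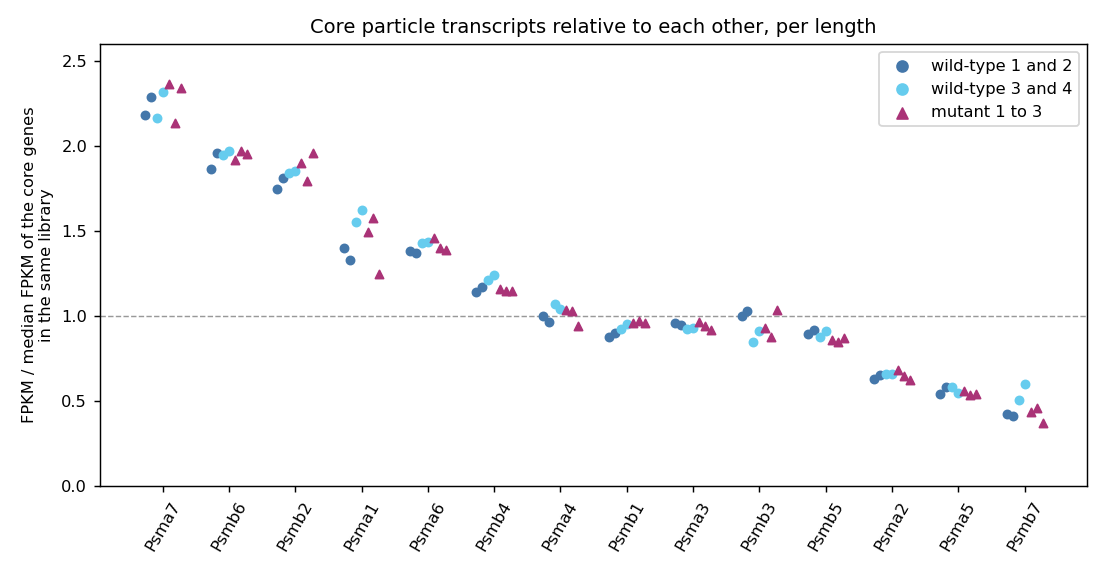
FPKM of each core particle gene divided by the median FPKM of the 14 core genes in the same library; 7 points per gene, circles for wild-type and triangles for mutant libraries. Psma7 lies at 2.13 to 2.36 and Psmb7 at 0.370 to 0.602, and the order of genes is nearly the same in all libraries.

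The inducible counterparts of the core moved with it. Of the 5 immunoproteasome and PA28 genes (Psmb8, Psmb9, Psmb10, Psme1 and Psme2) all 5 were called higher in mutant libraries than in the second pair (median 0.98). Of all genes 22.1% were called higher there. None of the 5 was called against wild-type 1 and 2 (median -0.27), where 0.312% of all genes were. On the FPKM scale Psmb8, which replaces Psmb5 in the immunoproteasome, stood at 2.49 to 3.11 times Psmb5. Psmb10 stood at 1.62 to 2.99 times Psmb7, but Psmb9 at only 0.472 to 0.634 times Psmb6. The 3 inducible genes together stood at 1.30 to 1.56 times the 3 constitutive catalytic genes, with the mutant libraries at 1.30 to 1.34.

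Genes that act on NFE2L1 or with it were taken from a list of 15. Against wild-type 3 and 4, 1 was called higher (22.1% of all genes) and 7 lower (24.7% of all genes), and against wild-type 1 and 2 or all wild-type libraries 0 of 15 were called. Ddi2, the protease that cleaves NFE2L1 into its active form, had 649 and 562 normalized counts in the first pair, 1261 and 1259.8 in the second, and 595, 707 and 536 in mutant 1 to 3 (-1.05 ± 0.17 from the second pair, adjusted p = 0.00113). Ngly1, which removes the glycans of NFE2L1 before cleavage, ranged from 2263 to 2489.8 over wild-type libraries and from 2328 to 2941 over mutant ones, with no contrast called. Nfe2l2, the related stress factor, was the gene called higher. All 3 mutant libraries (4188, 3766 and 4305) were above all 4 wild-type libraries (3491, 3299, 3182 and 2826). Its difference was 0.44 ± 0.13 from wild-type 3 and 4 (adjusted p = 0.0192) and 0.27 ± 0.13 from wild-type 1 and 2 (adjusted p = 0.475). Over all 7 libraries its adjusted p was 0.538. Of the 15 genes, 1 had all mutant libraries above all wild-type libraries (5.23% of all genes) and 2 had all of them below (4.34% of all genes).

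Of the genes that encode ubiquitin, Ubb and Rps27a were called higher than in wild-type 3 and 4. Ubb, a polyubiquitin gene, had 23310.0 and 23710.4 normalized counts in the first pair, 19342 and 18272 in the second, and 32649.8, 26448 and 33300.4 in mutant 1 to 3. All its mutant libraries were above all wild-type libraries, as in 5.23% of all genes and in no proteasome member. The difference was 0.38 ± 0.15 from the first pair (adjusted p = 0.366), 0.70 ± 0.15 from the second (adjusted p = 0.00428) and 0.54 over all 7 libraries (adjusted p = 0.538).

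Of 13 genes for ubiquitin activation and early conjugation 7 were called higher and 3 lower than in wild-type 3 and 4, where 22.1% of all genes were higher and 24.7% lower, so the count of lower genes was near the background. Uba1, the main activating enzyme, was among the lower (-0.95 ± 0.21), and Ube2c, a conjugating enzyme of mitosis, among the higher (0.83 ± 0.15). Against wild-type 1 and 2 Uba1 was at -0.02 ± 0.21 and Ube2c at -0.62 ± 0.15, neither of them called. Among 18 tested genes for proteins that work at the proteasome 4 were called higher and 6 lower, near those shares. Uchl5, a deubiquitinase docked by Adrm1, was higher than in wild-type 3 and 4 by 0.82 ± 0.15 and Usp14, another, by 0.39 ± 0.13. Against wild-type 1 and 2 Uchl5 was at -0.19 ± 0.15 and Usp14 at -0.26 ± 0.13. All mutant libraries of Usp14 and of Ube2c lay below both libraries of that first pair. Ecpas, a proteasome adaptor, had 1569 and 1634 normalized counts in the first pair, 3873 and 3684 in the second, and 1410.1, 1498 and 1301 in mutant 1 to 3. Its 3 mutant values were all under the lowest wild-type value, as in 4.34% of all genes. The difference was -1.43 ± 0.13 from the second pair (adjusted p = 6.5e-05) and -0.19 ± 0.13 from the first (adjusted p = 0.618). By limma none of the genes of these lists was called over all 7 libraries or against wild-type 1 and 2. Paaf1 and Psmb11 were not analysed here. Psma8, the testis alpha subunit, had 365 to 976 normalized counts.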

How the data were processed

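RNA was isolated with a PicoPure kit, cDNA was made with SMART-Seq v4 and libraries with the Swift 2S Plus kit, unstranded, per the labels' protocols. The submitters' processing notes name the build GRCm38, the aligner STAR (2.7.3a), DESeq2 (1.12.4), HTSeq (0.6.1), Cufflinks (2.2.1) and FastQC (0.11.7), without options. The first table the authors deposited holds a normalized count per gene (signal). In each library 100% of values were whole multiples of 1 step within 0.01 reads, so whole reads were recovered. The authors also deposited FPKM per transcript, summed here per gene through GENCODE vM21, which gave positions and lengths for all 44 members.

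A gene was tested where 3 or more libraries reached 10 normalized counts (16047 of 19649 genes). Values were taken as log2(normalized count + 1) and fitted in R 4.3.3 by limma 3.58.1 with its trend option. Tests were two-sided, with Benjamini-Hochberg adjustment over all genes tested at 0.05. The pseudocount of 1 slightly shrinks differences of low genes. One fit compared 3 mutant with 4 wild-type libraries. The other had 3 levels (mutant, wild-type 1 and 2, wild-type 3 and 4, split by title numbers) and 1 shared spread. SE is limma's. The members, lists and rules were chosen with earlier results of these data known. Library values are given for 26 members: the catalytic subunits, Pomp, Psmd4, Psmd14, Sem1, Psme3, Psme4, Nfe2l1 and, in each subcomplex, those with the highest and lowest difference from each wild-type pair. Pathway lists are given by counts and up to 4 examples, except that the count for the ubiquitin genes is not reported here. Nfe2l2, Ngly1 and Psma8 were named after their values were seen. Alternatives used edgeR 4.0.16 and DESeq2 1.42.0 on recovered reads, other scalings, filters and pseudocounts, FPKM, and fewer libraries. The fits were tested on simulated reads. At these depths (21325340 to 28710304 reads) every member had at least 397 normalized counts, so the number of libraries limits precision. Without strand, reads of the 8 members whose exons overlap a gene on the other strand cannot be told apart from that gene's.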

Additional observations from a re-analysis of the deposited data

Results flagged for a closer look

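For 39 of 44 members the difference from the mutant depended on the wild-type pair, by limma's test of wild-type 3 and 4 against wild-type 1 and 2. It was lower in wild-type 3 and 4 for 37 members, with a median over all 44 of -0.99, and higher for Psme4 and Nfe2l1.

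Psmd2, a scaffold subunit of the base, had 1 wild-type library far from the other 3. Wild-type 2 had 7231 normalized counts, beside 8667, 8821 and 8960.0, and its gap to the next library was 0.831 of the whole range, just over Dixon's critical value for 4 samples. It was the only such case in the 44 members checked in the wild-type group. Chance gives about 1 in 20, so 1 of 44 is no more than chance gives.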

How the results depend on the processing

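Results for mutant against wild-type 3 and 4 and between the wild-type pairs kept their direction and stayed within 1.5 times of the count of calls under each alternative run: 34 to 40 members called against wild-type 3 and 4 (34 to 39 with 1 library left out, medians 0.69 to 0.89) and 36 to 41 between the pairs. The comparison with all wild-type libraries depended on which of them entered. Without wild-type 1 and 2, 38 members were called and the median was 0.80; without wild-type 3 and 4 none was called and it was -0.16; with the title series as a covariate 20 were called; with the length slope as a covariate none was, and the median was -0.12. The share of all genes called without wild-type 1 and 2 is not given here. In the fit of 3 levels 22.1% of all genes were called higher and 24.7% lower than in wild-type 3 and 4. With 1 library left out 0 members were called against all wild-type libraries and the median ran from 0.14 to 0.49. Against wild-type 1 and 2, leaving out 1 library gave 0 calls and medians of -0.28 to -0.03. With mutant 3 as the lone mutant library 1 member was called there and the median was 0.0785. Over all 7 libraries Sem1 turned to -0.0064 and Nfe2l1 to 0.21 without wild-type 3 and 4, and to -0.0024 and 0.12 with the length slope.

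Single members against wild-type 1 and 2, none of them called, also changed sign. Pomp was 0.0135 with edgeR and 0.0136 with DESeq2, and Sem1 0.0468 and 0.0471. Psmb1 was -0.0356 with quantile normalization and -0.0049 with FPKM, and Psmc6 -0.0533 with FPKM. With 1 library left out they ran from -0.27 to 0.0639 for Psmb6, -0.25 to 0.20 for Pomp, -0.24 to 0.24 for Sem1, -0.34 to 0.23 for Psme4, -0.0336 to 0.40 for Nfe2l1, -0.29 to 0.12 for Psma7, -0.13 to 0.048 for Psma1, -0.34 to 0.0099 for Psma5, -0.46 to 0.002 for Psmb3, -0.17 to 0.16 for Psmb1, -0.0735 to 0.0992 for Psmc6, -0.12 to 0.16 for Psmd10 and -0.42 to 0.0224 for Psmg3. The cause was not tested. No paired analysis was possible because the labels give no replicate numbers shared between the groups.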
